A study of Homo sapiens with 4 samples.

Results

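The collagens are a family of 43 genes in the count files, chosen as every row whose symbol is COL, a number, A and a number, out of 23228 genes in all. They were followed in A673, an established line from Ewing sarcoma, a tumour of bone and soft tissue driven by the fusion protein EWSR1-FLI1. Cells received an siRNA against FAT4, an atypical cadherin tied to planar cell polarity and Hippo signalling, or a scramble siRNA as control, both with the lipid reagent RNAiMAX, and were harvested 48 h or 24 h after transfection. There was 1 library for each siRNA and time, so 4 in all (FAT4 siRNA 48 h, control siRNA 48 h, FAT4 siRNA 24 h and control siRNA 24 h), with no replicate culture behind any value. All groups were 1 cell line grown in serum, and nothing in the labels says how many siRNA sequences were used against FAT4.

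Collagens are trimers of chains that wind into a triple helix, which needs glycine at regular steps along the helical part (the glycine-led triplets). Fibrillar collagens (types I, II, III, V, XI, XXIV and XXVII) form the fibrils of connective tissue. Basement membrane collagens are the network-forming type IV chains and the multiplexins COL15A1 and COL18A1, which carry heparan or chondroitin sulfate. The others include fibril-associated collagens with interrupted helices (FACIT), the beaded filaments of type VI, the anchoring fibrils of COL7A1, short-chain networks and transmembrane collagens. By this grouping 11 members were fibrillar, 8 belonged to basement membranes and 24 were others. EWSR1-FLI1 is known to hold down many mesenchymal genes, some fibrillar and type VI collagens among them.

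The interruptions of the helix could be read from the coding sequences of the matched GENCODE transcripts. The longest uninterrupted run of glycine-led triplets had a median of 338 triplets among the 11 fibrillar genes, with a range of 216 to 343. In the 6 type IV genes the longest run was 38 to 66 triplets, although 426 to 444 triplets lay in runs of at least 5. The 10 FACIT genes had longest runs of 32 to 113 triplets.

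FAT4 itself was at 60.2 CPM (counts scaled by TMM, which sets the libraries to a common effective size) with its siRNA and 149 CPM with control at 48 h, and at 71.8 against 165 CPM at 24 h. It fell by 1.25 on the log2 scale over both times (SE 0.0978, edgeR adjusted p = 8.65e-34, lower in both pairs). Gene counts summed to 15413960 in FAT4 siRNA 48 h, 19614913 in control siRNA 48 h, 15196813 in FAT4 siRNA 24 h and 22625833 in control siRNA 24 h, and 3 counts in 1 library stood for 0.134 to 0.203 CPM. Of 10 Ewing sarcoma markers, 9 were above 1 CPM in their mean and CD99 was listed at 0 in all 4 libraries. Alignments that were not unique, 8407909 to 12667070 a library, went to no gene, so a listed 0 need not mean no expression. With FAT4 siRNA NKX2-2 fell by 0.85 on the log2 scale over both times, PRKCB by 0.34 and NR0B1 by 0.29. CAV1 rose by 0.53, LIPI by 0.31 and CCND1 by 0.24. STEAP1, PAPPA and HOXD13 had an edgeR adjusted p of 0.42 or more. Markers of other cell types were mixed. The fibroblast receptor PDGFRA had at most 3 counts, the endothelial PECAM1 7, the epithelial EPCAM 5 and the leukocyte PTPRC 5. The fibroblast markers PDGFRB and ACTA2 were expressed, PDGFRB at 34.9 CPM with FAT4 siRNA against 49.7 with control at 48 h and 30.3 against 40.9 CPM at 24 h, and ACTA2 at 37.0 against 31.3 and 26.8 against 29.8 CPM. The keratin KRT8 had 14.6 against 25.8 CPM at 48 h and 17.5 against 20.5 CPM at 24 h. The summed level of 8 fibroblast markers was 284 CPM with FAT4 siRNA and 415 CPM with control at 48 h, and 294 against 416 CPM at 24 h, most of it THY1, while 4 of the 8 had a mean under 1 CPM. A list of 5 noncoding RNAs (MALAT1, NEAT1, MEG3 and the snoRNA hosts SNHG1 and GAS5) moved the other way. It summed to 1744 against 1281 CPM at 48 h and 1500 against 1208 CPM at 24 h. The part of this list, of the fibroblast list or of the Ewing sarcoma markers in the collagen differences was not tested. The endothelial list summed to 1.08 to 2.06 CPM in the 4 libraries. The epithelial list had 158 against 172 CPM at 48 h and 208 against 204 CPM at 24 h, most of it the keratin KRT18. The leukocyte list had 9.72 against 21.2 CPM at 48 h and 15.6 against 25.7 CPM at 24 h, nearly all of it CD79A, with CD3E listed at 0. In these bulk libraries fewer cells that express a gene and less RNA per cell cannot be told apart.

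A673 cells expressed part of the collagen family. Of the 43 members, 17 had a mean of at least 5 CPM over the 4 libraries, 6 lay between 1 and 5 CPM, and 20 were under 1 CPM. Of all 23228 genes, 10595 had a mean of at least 5 CPM and 10707 were under 1 CPM. Whether the shares of collagens differ from these was not tested. COL22A1, a FACIT, and the type IV chain COL4A6 had no count in any library. The 5 low basement membrane members, COL4A3 to COL4A6 (chains of the networks in kidney, eye, muscle and other selected sites) and COL15A1, had 0 to 5 counts a library. The 3 low fibrillar members had 3 to 23 counts, and these were the cartilage collagens COL2A1 and COL11A1 and the bone-associated COL24A1. The 12 low members of the other classes had 0 to 19 counts. A filter on low counts left 27 members for testing, 10 fibrillar, 3 of basement membranes and 14 others, and 16 members were not tested.

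COL1A2, COL5A2, COL4A2 and COL4A1 were the 4 most abundant in each library and together held 73.8% to 77.1% of collagen counts. COL1A2, a chain of type I collagen, had 716 CPM in FAT4 siRNA 48 h, 595 in control siRNA 48 h, 395 in FAT4 siRNA 24 h and 375 in control siRNA 24 h. COL5A2, a chain of type V, which starts and sets the width of type I fibrils, had 473, 429, 485 and 371 CPM in the same order of libraries. The type IV chains formed the base of the basement membrane class, with 393, 421, 419 and 391 CPM for COL4A2 and 247, 239, 236 and 198 CPM for COL4A1. COL1A2 was thus high in both 48 h libraries, as, more narrowly, was COL4A1, while COL5A2 and COL4A2 overlapped between the times.

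**Figure D1:**
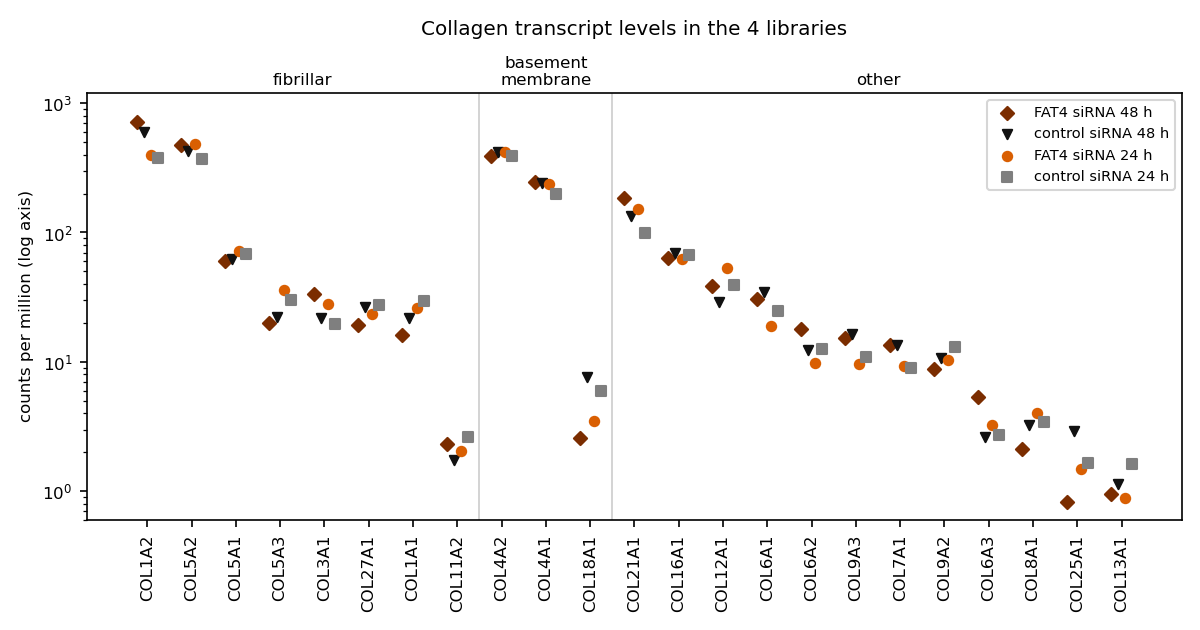
Level of the 23 collagens whose mean reached 1 CPM, in TMM-scaled CPM on a log axis, with 1 point for each library and the classes side by side. COL1A2, COL5A2, COL4A2 and COL4A1 stand at or above 198 CPM in every library, and COL18A1 is lower in both FAT4 siRNA libraries than in either control.

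All collagen genes together took 0.241% of gene counts in FAT4 siRNA 48 h (exact 95% Clopper-Pearson interval 0.238 to 0.243), against 0.224% in control siRNA 48 h (0.222 to 0.226). At 24 h the share was 0.201% with FAT4 siRNA (0.198 to 0.203) and 0.178% with control (0.177 to 0.180). The share was thus higher with FAT4 siRNA at both times and higher at 48 h with both siRNAs, beyond counting error, which is the one error these intervals cover. Fibrillar genes held 56.6% of collagen counts in FAT4 siRNA 48 h and 54.1% in control siRNA 48 h, and 51.8% against 51.2% at 24 h. Basement membrane genes held 27.1% against 30.6% at 48 h and 31.9% against 32.9% at 24 h. The other classes stayed between 15.2% and 16.3%.

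Levels of different genes need to be divided by transcript length. The length used was that of the longest coding transcript, which need not be the one expressed. Values per kb depend on that choice, and the counting intervals do not cover it. On this scale COL1A2 stood first with a mean of 96.1 CPM per kb. COL4A2 followed with 62.5, COL5A2 with 62.1, COL4A1 with 34.8 and the FACIT COL21A1 with 32.9 CPM per kb. COL16A1, another FACIT, had 11.5, COL5A1 7.75 and COL6A1 6.43 CPM per kb. Among the 22 neighbouring pairs in the order of the 23 genes of at least 1 CPM, 17 had ranges over the 4 libraries that overlapped. The 5 steps without overlap were COL1A2 over COL4A2, COL5A2 over COL4A1, COL21A1 over COL16A1, COL16A1 over COL5A1 and COL27A1 over COL7A1.

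Chains that assemble with each other were not at equal levels. Type I collagen normally holds COL1A1 chains in excess of COL1A2 chains, but here COL1A1 was the scarcer transcript. The ratio of COL1A1 to COL1A2 in counts per kb was 0.0181 in FAT4 siRNA 48 h (95% counting interval 0.0159 to 0.0205), against 0.0297 in control siRNA 48 h (0.0270 to 0.0327). At 24 h the ratio was 0.0528 with FAT4 siRNA (0.0475 to 0.0585) and 0.0631 with control (0.0582 to 0.0683). The 48 h libraries were both lower than the 24 h libraries, and FAT4 siRNA was lower than control at 48 h beyond counting error, while the intervals at 24 h overlapped. The common type IV and type V trimers likewise hold more COL4A1 than COL4A2 and more COL5A1 than COL5A2. Per kb COL4A1 stood at 0.496 to 0.617 of COL4A2 per kb in all 4 libraries, and at each time the ratio was higher with FAT4 siRNA (0.617 against 0.558 at 48 h, and 0.553 against 0.496 at 24 h). These ratios are not corrected for transcript GC content. Corrected for GC content and length, the log2 fold changes with FAT4 siRNA were close, 0.28 for COL4A1 and 0.25 for COL4A2. Uncorrected they were 0.15 and 0.00. COL5A1 stood at 0.107 to 0.154 of COL5A2 per kb, so that in each of these 3 types the chain in excess in the protein was the scarcer transcript.

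Among the beaded filament chains, COL6A1 exceeded COL6A2 per kb by a factor of 1.40 in FAT4 siRNA 48 h (1.20 to 1.62) and 2.28 in control siRNA 48 h (1.97 to 2.65). At 24 h that factor was 1.56 with FAT4 siRNA (1.27 to 1.91) and 1.62 with control (1.40 to 1.88). COL6A3, the remaining chain of the common type VI trimer, was far scarcer, at 0.0682 of COL6A1 per kb with FAT4 siRNA and 0.0299 with control at 48 h, and 0.0681 against 0.0433 at 24 h. Of the type IX chains, COL9A1 had only 1 to 5 counts a library. COL9A2 and COL9A3 were near equal at 24 h, with ratios of 0.946 with FAT4 siRNA and 1.05 with control. At 48 h these ratios were 0.4996 and 0.575, so both siRNAs showed the shift with time.

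**Figure D2:**
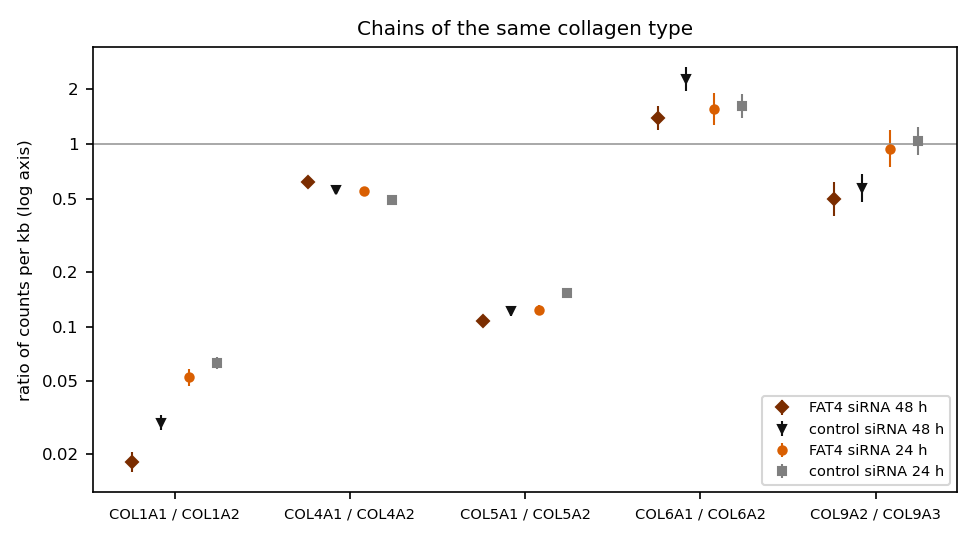
Ratio of the counts per kb of chains of 1 collagen type, on a log axis, in each library. Bars are exact 95% counting intervals. COL1A1 per COL1A2 is 0.0181 to 0.0631 in the 4 libraries and lower at 48 h, and COL9A2 per COL9A3 is lower at 48 h with both siRNAs.

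The comparison of the siRNAs asked which collagen transcripts differed between FAT4 siRNA and control on average over both times. The fibrillar chains COL3A1 and COL5A2 and the FACIT chains COL12A1 and COL21A1 rose, and the multiplexin COL18A1, the transmembrane COL25A1 and the fibrillar COL27A1 fell. In edgeR's quasi-likelihood test at an adjusted p under 0.05, 7 of the 27 tested members were called, which is 25.9%, and 25.9% of all 13712 tested genes were called. Thus 4 members were higher, beside 11.9% of all genes, and 3 were lower, beside 14.1% of all genes. In this fit the share of collagens called was that of the background, and the median log2 fold change of the 27 members was 0.01, against -0.01 for all genes. The number called depends on the processing. DESeq2 called 3 of the 27 members and 1234 of all 13712 genes. Offsets for GC content and length gave 13 calls among the members and a median of 0.28. Of these, 11 were higher (40.7%, beside 9.65% of all genes) and 2 lower (7.41%, beside 12.9%). The fit leaves 1 residual degree of freedom from single libraries. Its prior degrees of freedom were estimated as infinite, so genes were tested on a shared variance and not on their own. The test says nothing of the spread between cultures.

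Of the 10 fibrillar genes tested, 2 were higher and 1 was lower. COL3A1, whose homotrimers build fibrils with type I in extensible tissue, was at 33.4 CPM with FAT4 siRNA and 21.9 with control at 48 h, and at 28.1 against 19.5 CPM at 24 h. It was higher with FAT4 siRNA in both pairs, with ratios of 1.53 (1.34 to 1.74) and 1.44 (1.25 to 1.65), and rose by 0.57 on the log2 scale (SE 0.133, edgeR adjusted p = 2.51e-04). COL5A2 rose by 0.26 (SE 0.0885, edgeR adjusted p = 0.0158), with a ratio of 1.10 (1.07 to 1.14) at 48 h and 1.31 (1.27 to 1.35) at 24 h. COL27A1, a fibrillar collagen of cartilage, fell by 0.36 (SE 0.134, edgeR adjusted p = 0.0341), but its log2 fold change was -0.11 with the offsets for GC content and length (edgeR adjusted p = 0.586), and DESeq2 gave -0.35 (adjusted p = 0.278). DESeq2 did not call COL5A2 either (0.27, adjusted p = 0.0994). The level of COL27A1 was 19.2 against 26.7 CPM at 48 h and 23.3 against 27.7 CPM at 24 h.

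The type I chains were not called in this comparison. COL1A2 had a log2 fold change of 0.17 (edgeR adjusted p = 0.136), with ratios of 1.20 (1.17 to 1.24) at 48 h and 1.05 (1.02 to 1.09) at 24 h. COL1A1 had -0.31 (edgeR adjusted p = 0.0797), at 16.1 CPM with FAT4 siRNA against 22.0 CPM with control at 48 h, and 25.9 against 29.4 CPM at 24 h. The 2 chains of 1 fibril protein thus lay on opposite sides of 1 in both pairs, with COL1A1 below it. The COL1A1 ratio was 0.733 (0.626 to 0.858) at 48 h, and 0.882 at 24 h with an interval that includes 1 (0.776 to 1.002). With the offsets for GC content and length its log2 fold change was -0.07 (edgeR adjusted p = 0.744). The other type V chains COL5A1 and COL5A3 had log2 fold changes of 0.01 and 0.07 (edgeR adjusted p = 0.952 and 0.757).

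Of the 3 basement membrane genes tested, COL18A1 fell and the type IV pair was not called. COL18A1, the multiplexin from whose end endostatin is cut, had 40 counts with FAT4 siRNA and 153 with control at 48 h, and 52 against 134 at 24 h. In CPM these were 2.56 against 7.61 and 3.52 against 6.001, so both FAT4 siRNA libraries were below both controls. It fell by 1.16 on the log2 scale (SE 0.237, edgeR adjusted p = 1.99e-05), with ratios of 0.336 (0.231 to 0.479) at 48 h and 0.586 (0.417 to 0.813) at 24 h. COL4A1 had a log2 fold change of 0.15 and COL4A2 of 0.00 (edgeR adjusted p = 0.218 and 0.999).

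COL4A1 and COL4A2 lie head to head and share a promoter, so the window of one is shown with those of COL18A1, which moved apart from them. In RefSeq (GRCh38.p14) their starts are 127 bases apart on opposite strands, at position 110307157 for COL4A1 and 110307284 for COL4A2, and their windows of 250 bases before and 50 after the start share 226 identical bases. COL18A1 has 2 windows, at separate starts. Capitals mark the CCAAT box (CCAAT, or ATTGG on the other strand) and the GC box (GGGCGG, or CCGCCC).
COL4A2, chr13:110307034-110307333, plus strand: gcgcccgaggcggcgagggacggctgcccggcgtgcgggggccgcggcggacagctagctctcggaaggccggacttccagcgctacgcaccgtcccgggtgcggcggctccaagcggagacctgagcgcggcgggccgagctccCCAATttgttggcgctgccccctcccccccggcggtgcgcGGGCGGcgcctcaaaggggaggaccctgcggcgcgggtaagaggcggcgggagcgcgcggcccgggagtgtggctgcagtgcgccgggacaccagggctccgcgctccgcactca
COL18A1, chr21:45404915-45405214, plus strand: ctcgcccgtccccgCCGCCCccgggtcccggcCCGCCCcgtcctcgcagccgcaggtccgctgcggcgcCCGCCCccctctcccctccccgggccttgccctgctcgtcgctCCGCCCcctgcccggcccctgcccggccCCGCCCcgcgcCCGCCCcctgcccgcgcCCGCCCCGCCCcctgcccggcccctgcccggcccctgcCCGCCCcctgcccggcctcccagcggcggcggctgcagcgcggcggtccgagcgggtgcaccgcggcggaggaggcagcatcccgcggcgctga
COL18A1, chr21:45455272-45455571, plus strand: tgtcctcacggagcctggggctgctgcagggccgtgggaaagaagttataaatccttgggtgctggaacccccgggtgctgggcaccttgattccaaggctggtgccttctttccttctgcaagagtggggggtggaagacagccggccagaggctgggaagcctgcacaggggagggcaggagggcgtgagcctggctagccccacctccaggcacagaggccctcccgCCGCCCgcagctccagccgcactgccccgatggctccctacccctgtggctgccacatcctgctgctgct
The COL4A2 window held 1 CCAAT box and 1 GC box at 77.7% GC, and the upstream COL18A1 window 9 GC boxes at 86.7% GC. The second COL18A1 window held 1 GC box and the TATA letters TATAAA at 66.3% GC. Of 43 members, 31 had a window, 43 windows in all, and COL1A1, COL1A2, COL3A1 and COL5A2 were among those not searched. A CCAAT box stood in 14 of these 43 and in 34.6% of all 34796 promoter windows, a GC box in 24 and in 44.9%, and TATAAA in 8 and in 11.6%. The repeat GGAAGGAA, of the kind that EWSR1-FLI1 can bind, stood in 0 of 43 and in 3.68% of all windows. Neither gene of the pair was called, but with the offsets for GC content and length both were called higher (0.28 and 0.25, edgeR adjusted p = 0.00601 and 0.0117). No factor's binding was measured here.

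Of the 14 other collagens tested, 2 were higher and 1 was lower. COL21A1, a FACIT, had 186 CPM with FAT4 siRNA against 134 with control at 48 h, and 151 against 99.9 CPM at 24 h. It rose by 0.53 on the log2 scale (SE 0.0939, edgeR adjusted p = 4.70e-07), with ratios of 1.38 (1.31 to 1.46) and 1.51 (1.43 to 1.61). COL12A1, a FACIT that lies along type I fibrils, had 38.8 against 28.8 CPM at 48 h and 53.3 against 39.5 CPM at 24 h. It rose by 0.43 (SE 0.119, edgeR adjusted p = 0.00245), with nearly the same ratio at both times, 1.34 (1.20 to 1.51) and 1.35 (1.23 to 1.49), and DESeq2 gave 0.44 (adjusted p = 0.0609).

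The COL12A1 promoter is shown because it is the window of the gene whose ratio differed least between the times among those called. It lacks the CCAAT box that the type IV pair shares, as do the windows of COL18A1, COL21A1 and COL27A1. Such a box stood in only 34.6% of all windows. The COL12A1 window held 2 GC boxes at 63.3% GC.
COL12A1, chr6:75206004-75206303, minus strand: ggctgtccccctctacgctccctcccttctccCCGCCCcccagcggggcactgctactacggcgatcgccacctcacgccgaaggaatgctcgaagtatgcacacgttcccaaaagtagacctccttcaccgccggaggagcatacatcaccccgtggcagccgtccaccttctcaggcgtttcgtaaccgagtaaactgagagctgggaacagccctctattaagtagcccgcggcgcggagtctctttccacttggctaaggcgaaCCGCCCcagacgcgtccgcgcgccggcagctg

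COL25A1, a transmembrane collagen of neurons that is found in amyloid plaques, fell by 0.96 on the log2 scale (SE 0.366, edgeR adjusted p = 0.0368). It had 13 counts against 59 at 48 h and 22 against 37 at 24 h, so its ratio was 0.283 (0.143 to 0.523) at 48 h, and 0.898 at 24 h with an interval that includes 1 (0.505 to 1.56). The remaining FACIT chains COL16A1, COL9A2 and COL9A3 had log2 fold changes of -0.10, -0.30 and -0.12, and the anchoring fibril collagen COL7A1 had 0.02, none of them called. COL16A1 had 63.95 CPM with FAT4 siRNA against 69.7 with control at 48 h, and 62.9 against 66.6 CPM at 24 h. The type VI chains were not called either, with -0.28 for COL6A1 (edgeR adjusted p = 0.0947), 0.12 for COL6A2 and 0.65 for COL6A3 (edgeR adjusted p = 0.0568). COL6A1 had 30.7 against 34.7 CPM at 48 h and 18.8 against 24.9 CPM at 24 h, lower with FAT4 siRNA in both pairs. COL6A3 had 5.31 against 2.63 CPM at 48 h and 3.25 against 2.73 CPM at 24 h, from 48 to 83 counts a library, higher with FAT4 siRNA in both pairs. The other tested members of low level were not called, namely COL8A1, COL11A2 and COL13A1 between 1 and 5 CPM and COL2A1, COL8A2, COL11A1 and COL19A1 under 1 CPM.

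**Figure D3:**
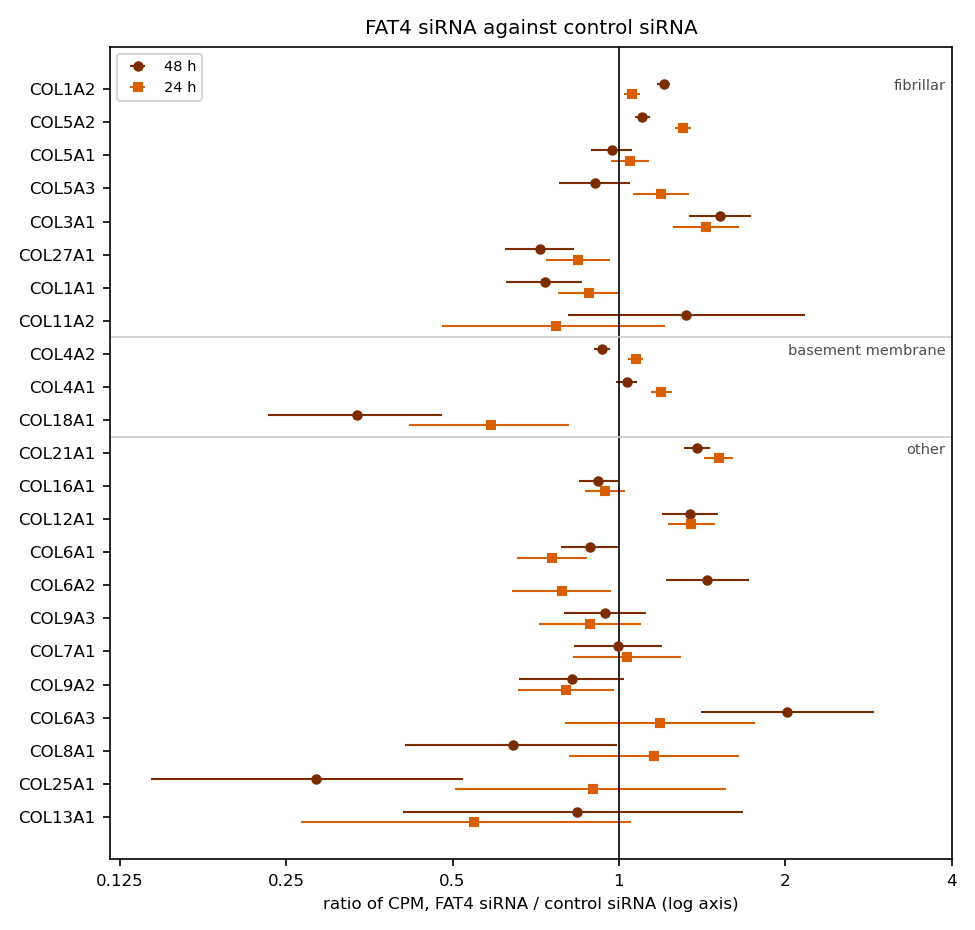
Ratio of FAT4 siRNA to control in TMM-scaled CPM for the 23 collagens of at least 1 CPM, on a log axis, at 48 h and 24 h. Bars are exact 95% counting intervals, and the line marks a ratio of 1. COL3A1, COL12A1 and COL21A1 lie above 1 at both times, COL18A1 lies below 1 at both, and COL6A2 crosses the line between the times.

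The classes were then compared by their medians. The median log2 ratio (with 1 CPM added) of the 8 fibrillar genes of at least 1 CPM was 0.05 at 48 h and 0.07 at 24 h. That of the 3 basement membrane genes was -0.10 and 0.10, and that of the 12 others was -0.10 and -0.09, while all genes of that level stood at 0.00 and -0.02. With the offsets for GC content and length the fibrillar median was 0.16 at 48 h and 0.26 at 24 h, and that of basement membrane genes 0.085 and 0.37. The median of the others changed sign with these offsets, to 0.11 at 48 h and 0.16 at 24 h. A change of at least 1.5-fold was seen at each time in 1 of the 17 collagens of at least 5 CPM. Whether that differs from the share of all genes was not tested. At 48 h COL3A1 was that much higher, beside 4.1% of the 10595 genes of that level, and none was that much lower, beside 6.9%. At 24 h COL21A1 was that much higher, beside 2.62%, and none was that much lower, beside 4.62%. COL18A1, with ratios of 0.336 and 0.586, was above 5 CPM in both controls, but its mean of 4.92 CPM kept it out of this count, as the low level of COL25A1 did.

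The siRNA ratios at the times were set side by side for the 23 genes of at least 1 CPM, and 16 had 1 sign at both. The counting interval lay above 1 at both times for COL1A2, COL3A1, COL5A2, COL12A1 and COL21A1, and below 1 at both for COL6A1, COL18A1 and COL27A1. It lay on opposite sides for COL4A2 and COL6A2. COL6A2 had 18.0 CPM with FAT4 siRNA against 12.4 with control at 48 h, and 9.88 against 12.5 CPM at 24 h, so its ratio was 1.45 (1.22 to 1.72) and 0.788 (0.641 to 0.966). COL4A2 had ratios of 0.933 (0.903 to 0.965) and 1.07 (1.04 to 1.11). The intervals of the times were apart for 4 more genes, COL1A2, COL4A1, COL5A2 and COL5A3. With 1 library a group, the difference between the times could not be tested beyond counting error.

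Transcript GC content moved with the siRNA ratio across all genes. The median log2 ratio of all genes was -0.11 at 48 h and -0.24 at 24 h for genes above the upper quartile of GC content (56.9%), and 0.07 and 0.18 for genes below the lower quartile (42.1%). Tested collagens had a median GC content of 61.1%, against 48.5% for all tested genes, and 16 of the 27 lay above the upper quartile. The 4 members called higher had 44.5% to 52.1% GC, and the 3 called lower 41.3% to 67.2%, a range that spans the other, with COL25A1 at its low end and COL18A1 at its high end. With offsets for GC content and length in the same edgeR fit, 11 members (40.7%) were higher, beside 9.65% of all genes, and 2 (7.41%) were lower, beside 12.9%. The added ones were COL1A2, COL4A1, COL4A2, COL5A1, COL5A3, COL6A2 and COL6A3, COL27A1 was no longer called, and the median log2 fold change of the 27 was 0.28, against -0.01 for all genes. After correction COL3A1 rose by 0.64, COL12A1 and COL21A1 by 0.47 each and COL5A2 by 0.30, and COL18A1 fell by 0.74 and COL25A1 by 1.03. The part of GC content in the collagen differences was not tested.

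Words of 7 bases in the 3' ends of transcripts were also looked up, since earlier work on these same libraries had picked them by their siRNA ratios. Words that mark lower genes (TTGGACT or TGGACTA) stood in 14.2% of 18031 searched genes. Among the 27 tested collagens they stood in COL8A2 alone, which was not called. A word that marks higher genes (AGCCTTA) stood in 9.67% of searched genes and among the tested collagens in COL12A1 alone.

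**Figure D4:**
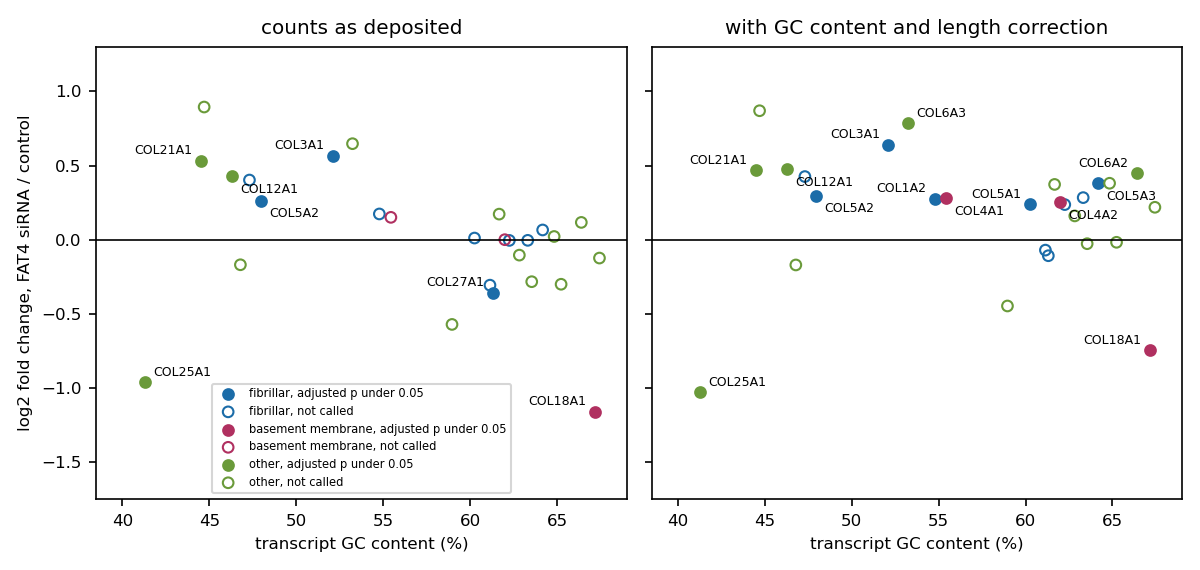
Log2 fold change of FAT4 siRNA over control against transcript GC content for the 27 tested collagens, from the counts as deposited and with offsets for GC content and length. Filled points have an adjusted p under 0.05 and colours give the class. With the offsets 11 genes are called higher and 2 lower, against 4 and 3 without them.

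The comparison of the times asked which transcripts differed between 48 h and 24 h over both siRNAs. Here 9 of the 27 tested collagens were called (33.3%), beside 26.6% of all genes. Of these, 6 were higher at 48 h, beside 13.8% of all genes, and 3 were lower, beside 12.8%. The fibrillar class had 1 higher and 2 lower, the other classes had 5 higher and 1 lower, and none of the 3 basement membrane genes was called.

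The paired chains of type I collagen moved in opposite directions with time. COL1A2 had 716 CPM at 48 h and 395 CPM at 24 h with FAT4 siRNA, and 595 against 375 CPM with control. It rose by 0.76 on the log2 scale (SE 0.0888, edgeR adjusted p = 1.34e-15), with ratios of 1.81 (1.76 to 1.87) with FAT4 siRNA and 1.59 (1.54 to 1.63) with control. COL1A1 had 16.1 CPM at 48 h against 25.9 at 24 h with FAT4 siRNA, and 22.0 against 29.4 CPM with control, and fell by 0.54 (SE 0.136, edgeR adjusted p = 7.24e-04). The type V chain COL5A3 fell by 0.64 (SE 0.131, edgeR adjusted p = 2.48e-05), with 20.1 against 36.1 CPM under FAT4 siRNA and 22.3 against 30.3 CPM under control. Both libraries at 48 h were below both at 24 h for COL1A1 and COL5A3, and above them for COL1A2.

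Among the other classes, COL6A1 rose by 0.59 (edgeR adjusted p = 1.21e-04), COL9A3 by 0.63 (edgeR adjusted p = 9.28e-04), COL7A1 by 0.57 (edgeR adjusted p = 0.00536) and COL21A1 by 0.36 (edgeR adjusted p = 0.00110). COL9A3 had 15.4 CPM at 48 h against 9.61 at 24 h with FAT4 siRNA and 16.3 against 10.8 CPM with control. COL7A1 had 13.5 CPM in both 48 h libraries, against 9.27 and 8.96 CPM at 24 h. COL6A2 rose by 0.40 (edgeR adjusted p = 0.0471), but its ratio of 48 h to 24 h was 1.82 (1.48 to 2.24) with FAT4 siRNA and 0.991 (0.832 to 1.18) with control, and whether those differ was not tested. COL12A1 fell by 0.46 (edgeR adjusted p = 0.00119), with ratios of 0.727 and 0.731. DESeq2 did not call COL1A1, COL6A2, COL7A1 or COL9A3 for time. COL12A1 was lower at 48 h and higher with FAT4 siRNA, and COL21A1 was higher on both counts.

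**Figure D5:**
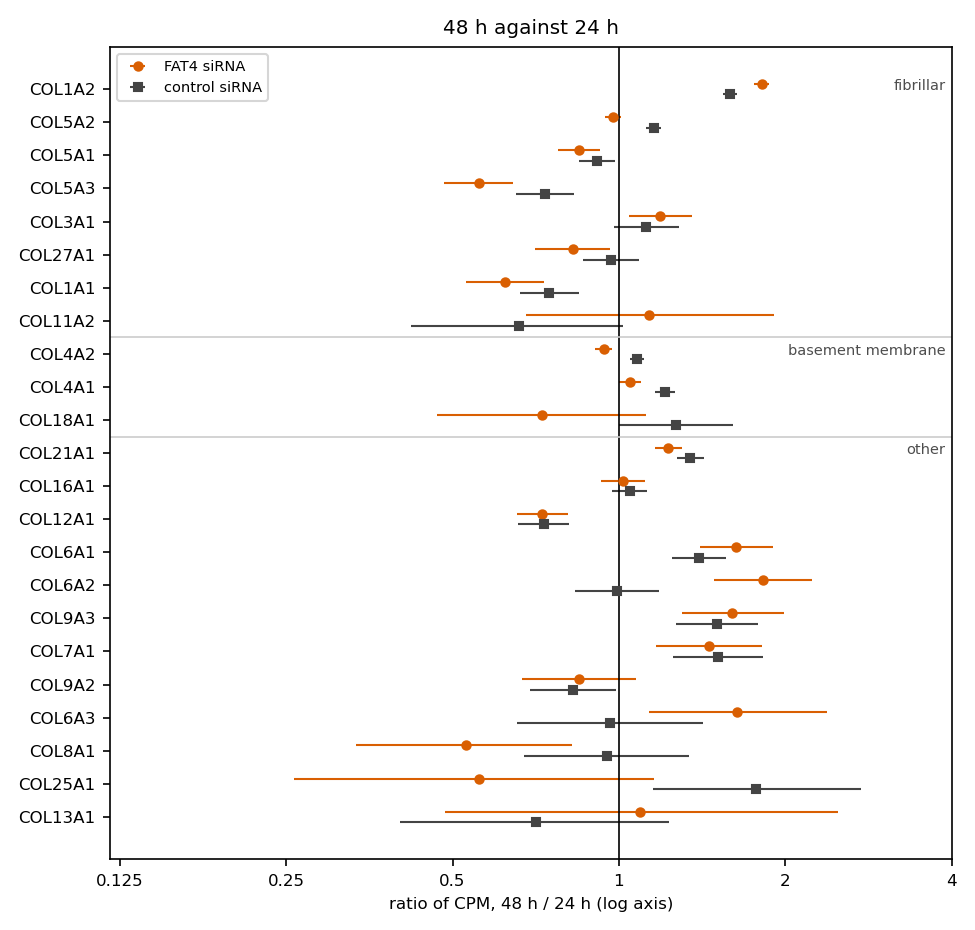
Ratio of 48 h to 24 h in TMM-scaled CPM for the 23 collagens of at least 1 CPM, on a log axis, with FAT4 siRNA and with control. Bars are exact 95% counting intervals. COL1A2 is at 1.81 and 1.59, COL1A1 at 0.622 and 0.748, and COL6A2 at 1.82 and 0.991.

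The machinery around collagen was read from 8 lists with 97 genes in the files, of which 82 were tested. Of these 16 were higher and 14 lower with FAT4 siRNA, beside the 11.9% and 14.1% of all genes, and 16 were higher and 13 lower at 48 h, beside 13.8% and 12.8%. Among 19 enzymes and chaperones that modify or fold the chains, 4 were higher and 4 lower, with a median log2 fold change of -0.05 against -0.01 for all genes. SERPINH1, the collagen chaperone HSP47, had 951 CPM with FAT4 siRNA against 525 with control at 48 h, and 619 against 506 CPM at 24 h, and rose by 0.57. The prolyl isomerase FKBP14 rose by 0.56 and the lysyl hydroxylase PLOD2 by 0.41. The galactosyltransferase GLT25D2 fell by 0.96, the lysyl hydroxylase PLOD3 by 0.78 and the prolyl hydroxylase LEPREL1 by 0.72.

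Of 9 genes for export of large cargo from the endoplasmic reticulum, 4 were higher and none lower, with a median of 0.18 and a median GC content of 45.9%. They included SAR1B, a coat GTPase, at 0.54, and the cargo receptors MIA3 (TANGO1) at 0.52 and CTAGE5 at 0.42. None of 4 propeptide proteases and their enhancers was called, with a median of -0.09. Of 4 crosslinking enzymes, with a median of -0.36, LOX rose by 0.63, LOXL1 fell by 0.77, and LOXL2, just inside the threshold, fell by 0.54. LOX had 9.85 CPM with FAT4 siRNA against 8.60 with control at 48 h, and 10.2 against 4.75 CPM at 24 h.

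Of 10 genes of fibril-associated proteins (median 0.05) 2 were higher and 1 lower, with BGN (biglycan) up by 0.55, FN1 (fibronectin) up by 0.24 and OGN (osteoglycin) down, at -1.47 and under 2 CPM in every library. The BGN ratio was 2.02 (1.83 to 2.22) at 48 h, and 1.07 at 24 h with an interval that includes 1 (0.972 to 1.17). Of 13 genes of collagen degradation (median -0.24) 1 was higher and 5 lower. The membrane protease MMP14 rose by 0.73, and the protease inhibitors TIMP2 and TIMP3 fell by 0.93 and 0.76. The collagenase MMP8, with between 9 and 46 counts a library, fell by 1.10. Its ratio was 0.252 (0.108 to 0.520) at 48 h, and 0.881 at 24 h with an interval that includes 1 (0.422 to 1.77). TIMP2 had 52.7 CPM with FAT4 siRNA against 108 with control at 48 h, and 55.4 against 98.7 CPM at 24 h. Of 7 receptors (median -0.23) ITGB1, the beta chain of the collagen-binding integrins, rose by 0.66, and the discoidin domain receptors DDR1 and DDR2 fell by 0.40 and 0.23. The list for collagen transcription holds signalling genes as well as transcription factors. Of its 16 genes (median 0.11, median GC content 46.2%) 3 were higher and none lower, beside 11.9% and 14.1% of all genes. They were CTGF, a matricellular protein and not a transcription factor, at 1.93, CBFB at 0.46 and the CCAAT-binding subunit NFYB at 0.33. The 3 genes named per direction were those with the largest change in each list.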

How the data were processed

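The deposited values were raw counts of reads per gene, 1 file for each of the 4 libraries. The libraries came from stranded mRNA, per the labels' protocols, and the build was hg19 and the tools were HTSeq, TopHat2, SAMtools and CASAVA 1.8.2, per the submitters' processing notes. No source used here gives the annotation or the strand setting of the counting, so counts of overlapping or antisense genes are uncertain. Each file held 5 entries that name no gene, and these were left out. Reads outside genes were 19.48% to 20.54% of assignable reads.

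Counts were fitted with edgeR 4.0.16 in R 4.3.3, with TMM scaling and filterByExpr (minimum count 10, total 15), a quasi-likelihood fit with siRNA and time as additive terms, and two-sided tests adjusted by Benjamini-Hochberg over 13712 genes at 0.05. The fit leaves 1 residual degree of freedom, and the common biological coefficient of variation was 0.0737. The prior degrees of freedom were estimated as infinite, so the quasi-likelihood variance was fully shared among genes. Ratios of single libraries have exact 95% Clopper-Pearson intervals (SciPy 1.17.1), which cover counting error only. Reads without molecular identifiers are not independent molecules.

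The rule named FAT4, every collagen with a mean of at least 5 CPM, those of 1 to 5 CPM called in either comparison, and the 3 highest and 3 lowest called genes of each list. Other collagens of low level were named after their values were seen. The members, lists and tests were chosen with earlier results of these data known. The longest coding transcript of each gene in GENCODE release 29, or the longest of any kind where none was coding, gave length and GC content. A transcript was matched for 43 collagens and 95.8% of tested genes, and promoter windows came from RefSeq (GRCh38.p14). Both references are on another build than the counts, which carry no coordinates. Rows of 2 collagen pseudogenes were not members.

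Alternatives were DESeq2 1.42.0, DESeq2 size factors, other filters, offsets for GC content and length (splines of 5 and 4 degrees of freedom per library), 1 term alone and robust empirical Bayes.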

Additional observations from a re-analysis of the deposited data

Results flagged for a closer look

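The siRNA ratios of 2 collagens lay on opposite sides of 1 at the times, each with a counting interval that excluded 1. COL6A2 had a ratio of FAT4 siRNA to control of 1.45 at 48 h and 0.788 at 24 h, and COL4A2 had 0.933 and 1.07. With 1 library for each siRNA and time this difference was not tested beyond counting error. Neither gene was called over both times in edgeR (adjusted p = 0.641 and 0.999), and both were called higher with the GC and length offsets (adjusted p = 0.0385 and 0.0117).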

How the results depend on the processing

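Collagen calls for the siRNA numbered 7, against 3 with DESeq2 (2 higher, 1 lower), 13 with the GC and length offsets (11 higher, 2 lower) and 0 with siRNA as the single term in edgeR. That last fit had 3 members at an unadjusted p under 0.05. Over all genes 3555 were called for the siRNA, against 1234 with DESeq2 and 0 with the single term, where 1706 had an unadjusted p under 0.05. For the times, 9 collagens were called, against 5 with DESeq2 and 0 with time as the single term (6 unadjusted), and of all genes 3646, against 1176 and 50. The other scaling and the filters gave 5 to 8 and 8 to 9 collagens. Robust empirical Bayes gave the 7 and 9 of the main fit with the same values, so it is no separate check. COL3A1, COL21A1 and COL18A1 were called for the siRNA under every alternative that gave a value except the single term. COL25A1 was too, and it had no adjusted p in DESeq2. COL12A1 and COL5A2 were not called by DESeq2 (adjusted p = 0.0609 and 0.0994), and COL27A1 neither by DESeq2 nor with the offsets (highest adjusted p 0.586). For the times COL1A1, COL7A1 and COL9A3 were lost in DESeq2, and COL6A2 in 4 alternatives besides the single term. Of 261 single-gene values 0 turned round a called direction. That number includes the robust fit, and values of genes that were not called and so had no called direction to turn. Among values not called, some signs changed. With the offsets the siRNA log2 fold change of COL16A1 went from -0.10 to 0.16 and that of COL9A3 from -0.12 to 0.22. For the times COL18A1 went from 0.05 to -0.03 with DESeq2. The median log2 ratio of fibrillar genes moved to 0.16 at 48 h and 0.26 at 24 h with the offsets. That of the others turned from negative to positive with them, at 0.11 and 0.16. That of basement membrane genes moved at 48 h to 0.00 without the filter, 0.085 with the offsets and -0.0267 with the multiplexins counted elsewhere, and at 24 h to 0.37 and 0.18 in the last 2. The offsets rest on GC content and length, and the cause of the other moves was not tested. Genes under about 5 CPM rest on few counts. No paired analysis was possible because each group held 1 library, so no replicate numbers pair samples across groups, though the time term already sets the siRNAs against each other within each time. Leaving out a library leaves no residual degree of freedom.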
